A study of Mus musculus with 2 samples.

Results

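A set of 6 microRNA hairpins that reach maturity without 1 or more of the usual cutting steps was followed in the newborn mouse midbrain. They are Mir320 and Mir484, whose precursors need no Drosha, the mirtrons Mir877, Mir1224 and Mir3102, and the mirtron-like Mir702. They were chosen by name for how they are made and not by a rule on their counts, though earlier results of these data were known. They are 6 of the 1973 microRNA genes of the count tables. The data are 2 small RNA libraries, 1 each from midbrain tissue of pup 1 and of pup 3. Both pups were of strain B6NCrl at postnatal day 0, with no allele or treatment named. The labels call the pups biological replicates and give both the same donor identifier, and sex was not recorded. There is 1 group, so the values describe levels and the spread between 2 pups.

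In the canonical route the nuclear enzyme Drosha, with Dgcr8, cuts a hairpin out of a long primary transcript, Dicer then removes its loop, and 1 arm is loaded into an Argonaute protein to repress messenger RNAs through its seed. A mirtron is a short intron that folds into a hairpin, so that splicing and the opening of the lariat take the place of the Drosha cut. The precursor of miR-320 is transcribed directly as a short capped hairpin and goes straight to Dicer, and that of miR-484 is likewise made without Drosha. Brain tissue is a setting in which such microRNAs have been studied by comparing the loss of Dgcr8 with the loss of Dicer.

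The mature sequences show where the intron boundary falls against the seed of a mirtron's 5′ arm. Mature sequences were matched by symbol for 5 of the 6 members in RefSeq's table on GRCm38. They are written 5′ to 3′ with the seed, bases 2 to 8, in capitals. The 5′ arms of Mir877, Mir1224, Mir702 and Mir3102 begin with the splice donor GU, whose U is the first base of the seed.
miR-484: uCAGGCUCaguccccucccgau
miR-877-5p: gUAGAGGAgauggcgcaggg
miR-877-3p: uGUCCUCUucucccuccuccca
miR-1224-5p: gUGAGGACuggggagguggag
miR-1224-3p: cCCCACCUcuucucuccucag
miR-702-5p: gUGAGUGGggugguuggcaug
miR-702-3p: uGCCCACCcuuuaccccgcucc
miR-3102-5p: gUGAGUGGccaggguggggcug
miR-3102-3p: gAGCACCCcauuggcuacccaca

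The 5′ arms of miR-702 and miR-3102 have the same seed, UGAGUGG, and no other of the 1738 mature sequences in the table has it. No other seed above is shared with another mature sequence. Mir3102 has a further, inner pair of annotated arms that lie end to end with the outer pair.
miR-3102-5p.2: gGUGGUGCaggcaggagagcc
miR-3102-3p.2: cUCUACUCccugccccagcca

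The letters GUGAG open miR-1224-5p, miR-702-5p and miR-3102-5p. They open 14 mature sequences in all, 0.806% of the table, and 9 of the 14 come from hairpins that fill an intron exactly. A count in these data belongs to a whole hairpin, so the arms of 1 hairpin cannot be told apart here.

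The hairpins themselves are shown for the members on which the intron match turns, with the splice dinucleotides of the host intron in capitals. For Mir484, which lies in no intron, the capitals mark the mature sequence.
Mir877: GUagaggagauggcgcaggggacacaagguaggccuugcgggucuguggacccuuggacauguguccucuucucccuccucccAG
Mir1224: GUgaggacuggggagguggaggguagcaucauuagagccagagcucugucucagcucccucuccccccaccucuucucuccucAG
Mir702: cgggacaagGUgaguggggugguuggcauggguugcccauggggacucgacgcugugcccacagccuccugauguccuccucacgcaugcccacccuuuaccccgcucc
Mir484: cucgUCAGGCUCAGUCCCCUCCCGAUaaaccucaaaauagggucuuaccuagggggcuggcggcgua

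By annotation, 3 members are complete introns. Mir877 (ENSMUSG00000077931.1) lies at chr17:35960730-35960814 on the minus strand, and its 85 bases are the whole of an intron of Abcf1, whose protein takes part in translation initiation. Mir1224 (ENSMUSG00000080669.1), at chr16:20604452-20604536 on the plus strand, is likewise an 85-base intron, of Vwa5b2. Mir3102 (ENSMUSG00000093296.1), at chr7:100882306-100882409 on the minus strand, is a 104-base intron of Arhgef17, and an exon of another Arhgef17 transcript overlaps this stretch. All positions are on GRCm38, counted from 1, in the GENCODE M21 annotation.

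Mir702 (ENSMUSG00000076240.1), at chr5:136991433-136991541 on the plus strand, does not have the same ends as its intron. Its 109 bases begin 9 bases inside the exon before a 102-base intron of Plod3, which encodes a collagen-modifying lysyl hydroxylase, and stop 2 bases short of the intron's end. Its 5′ arm nevertheless begins at the first base of the intron, as do the 5′ arms of Mir877, Mir1224 and the outer pair of Mir3102. The 3′ arms end at the last base of the intron for Mir1224, 1 base before it for Mir877 and Mir3102, and 2 bases before it for Mir702.

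**Figure D1:**
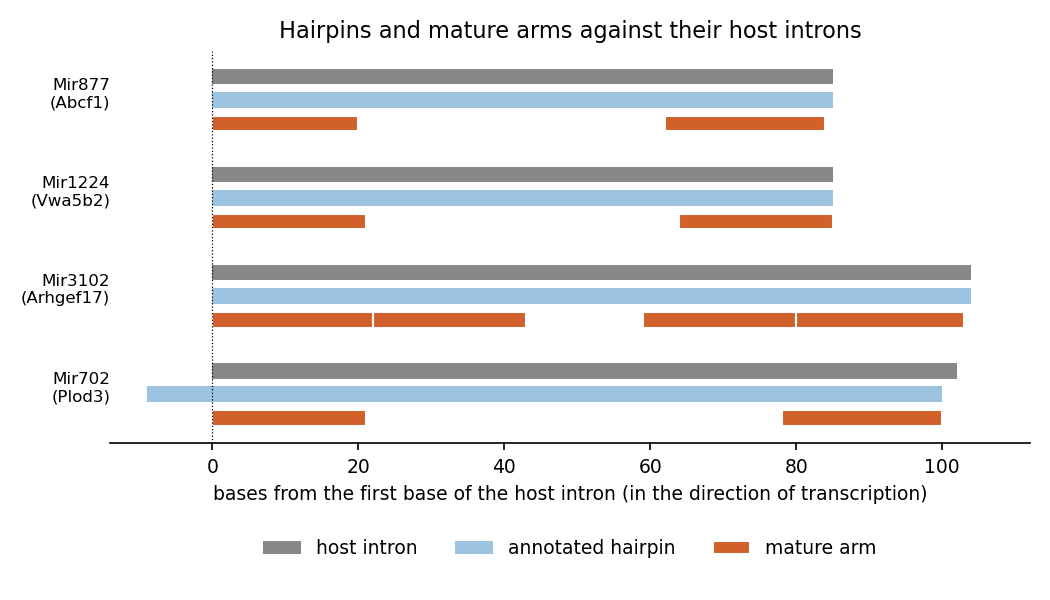
Position of the annotated hairpin (light blue) and mature arms (orange) against the host intron (grey) for Mir877, Mir1224, Mir3102 and Mir702, in bases from the first base of the intron along the transcript. In all 4 a mature arm starts at base 0, and only the hairpin of Mir702 begins before the intron, by 9 bases.

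An exact match to an intron was rare among microRNA genes. Of the 1894 genes with a position, 887 overlapped an intron of their own strand, but 22, or 1.16%, had both ends at the ends of 1 intron. Among the 1005 hairpins listed by RefSeq, 30 begin with GU and end with AG, Mir877 and Mir1224 among them. The median host intron over all hairpins that overlap an intron was 6106 bases long.

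Mir320 and Mir484 lie in no intron and stand beside the start of a gene that runs the other way. Mir320 (ENSMUSG00000065528.1), at chr14:70443510-70443591 on the plus strand, begins 63 bases from a transcript start of Polr3d, a subunit gene of RNA polymerase III, on the minus strand. Mir484 (ENSMUSG00000070074.1), at chr16:14159626-14159692 on the plus strand, begins 359 bases from a transcript start of Marf1 on the minus strand, and a longer Marf1 transcript has an exon that covers 19 of its bases from the other strand. Over all 1894 genes the median distance to the nearest transcript start on either strand was 6324 bases. Of these genes 302, or 15.9%, had a start of either strand within 500 bases. Starts of the opposite strand alone were not counted over all genes. Mir702 was also among the 302, at -191 bases from a transcript start of Plod3 on its own strand.

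The folded hairpins differed in stability. Mir1224 was the most stable per base of the 4 with a hairpin sequence, at -50.4 kcal/mol per 100 bases, and 84.6% of the 1005 hairpins of the table were less stable. Mir702 had -43.5, Mir877 -42.9 and Mir484 -36.7 kcal/mol per 100 bases, against a median of -40.6 over the table. Mir484 was therefore less stable than the median hairpin, with 33.9% of hairpins below it in stability. GC content was above the table's median of 51.7% in all 4, from 58.2% in Mir484 to 65.1% in Mir702. None of the 4 hairpin sequences shared a run of 20 bases with another hairpin of the table, and for Mir3102 the same held for its mature arms, the only part searched. Mir320 had no sequence in the table and was not searched. The genome outside the table's hairpins was not searched either, so unique mapping of the members is not shown. In these counts a read that maps to several places enters no gene, so a hairpin with close copies would be undercounted.

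The own-strand counts on microRNA genes totalled 2337113 in pup 1 and 3195277 in pup 3, and levels are given as counts scaled to a total of 1000000 (CPM). Where a hairpin had no counts, its level could still have been as high as 3 counts, equal to 1.28 CPM (pup 1) or 0.939 CPM (pup 3). Reads that map to several places took 38.7% and 39.8% of all reads. Of the fixed tissue markers, the 3 neuronal hairpins Mir137, Mir153 and Mir132 held 3.60% of the counts and endothelial Mir126a 3.31%, while the hepatocyte hairpin Mir122 held 0.00533% and 2 striated-muscle hairpins 0.00337%. In bulk tissue a smaller number of expressing cells and less RNA in each cell cannot be told apart.

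Each of the 6 members reached 10 counts in both libraries, the minimum for detection, which 18.2% of the 1973 genes reached. Together they held 9197 counts in pup 1 and 11290 in pup 3, which is 0.394% of the own-strand counts on microRNA genes (exact Clopper-Pearson 95% interval 0.386 to 0.402) and 0.353% (0.347 to 0.360). These intervals cover counting error only. Mir484 and Mir320 made up most of this sum. Mir484 alone held 62.5% of the members' counts in pup 1 and 61.3% in pup 3, and the 4 mirtron-type hairpins held 11.5% and 10.9%.

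Mir484 was the most abundant member. It had 5749 counts in pup 1 and 6919 in pup 3, which is 2460 and 2165 CPM, or 2313 ± 208 CPM (SD, n = 2) and rank 79 of all genes. Mir320, whose microRNA is widely expressed, had 2387 counts in pup 1 and 3142 in pup 3, or 1021 and 983 CPM. Its mean of 1002 ± 26.9 CPM put it at rank 99. Mir320 varied less between the pups than any other member, with an SD of 2.68% of its mean.

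The mirtron-type hairpins were all lower than Mir320 in both pups. Mir1224 had 380 counts in pup 1 and 412 in pup 3, or 163 and 129 CPM, with a mean of 146 ± 23.8 CPM (SD, n = 2). Mir877 had 290 and 448 counts, or 124 and 140 CPM, with a mean of 132 ± 11.4 CPM. Their order depended on the pup: Mir1224 was higher in pup 1, Mir877 in pup 3.

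The members that share the seed UGAGUGG were the lowest. Mir702 had 221 counts in pup 1 and 199 in pup 3, or 94.6 and 62.3 CPM, with a mean of 78.4 ± 22.8 CPM. Mir3102 had 170 counts in each library, or 72.7 and 53.2 CPM, with a mean of 63.0 ± 13.8 CPM. Both were lower in pup 3, and their pups' values overlapped each other.

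**Figure D2:**
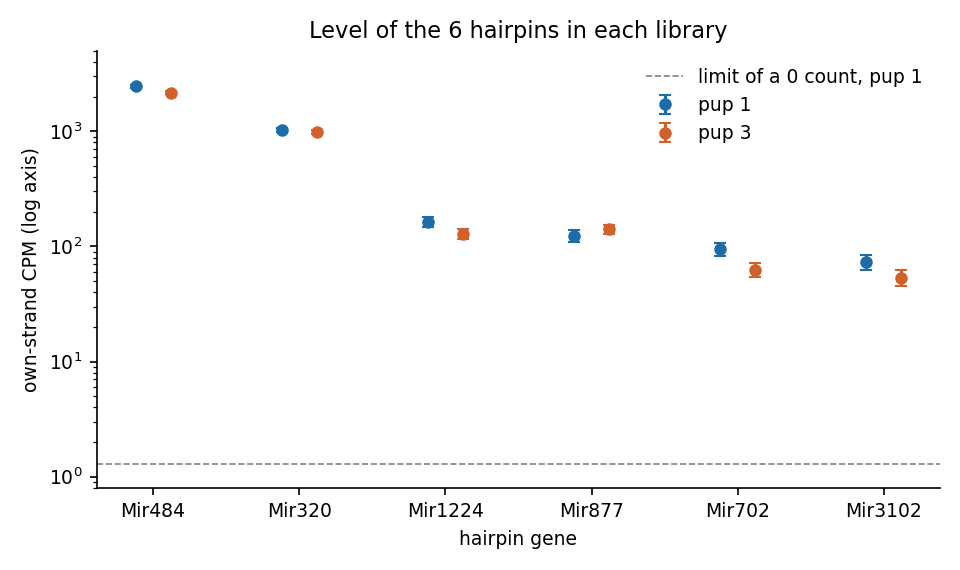
Own-strand CPM (log axis) of each member in pup 1 (blue) and pup 3 (orange), with exact 95% counting intervals. The dashed line is the fixed limit of 3 counts used for a count of 0 in pup 1. Mir484 and Mir320 have means of 2313 and 1002 CPM, and the means of the 4 mirtron-type hairpins run from 63.0 to 146 CPM.

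The order was therefore Mir484, Mir320, then Mir1224 with Mir877, then Mir702 with Mir3102. Mir484 exceeded Mir320 by 2.41 times in pup 1 and 2.20 times in pup 3, and Mir320 exceeded Mir1224 by 6.28 and 7.63 times. In both steps the counting intervals did not overlap in either library. Mir877 exceeded Mir702 by 1.31 and 2.25 times, again with separate intervals in both libraries. Mir1224 was 1.31 times Mir877 in pup 1, with separate intervals, and 0.920 times in pup 3, with overlapping ones. The intervals of Mir702 and Mir3102 overlapped in both libraries. Neither of these pairs was therefore separated in both libraries. Per 100 bases of annotated hairpin the order was the same, from 3452 CPM for Mir484 to 60.5 CPM for Mir3102.

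**Figure D3:**
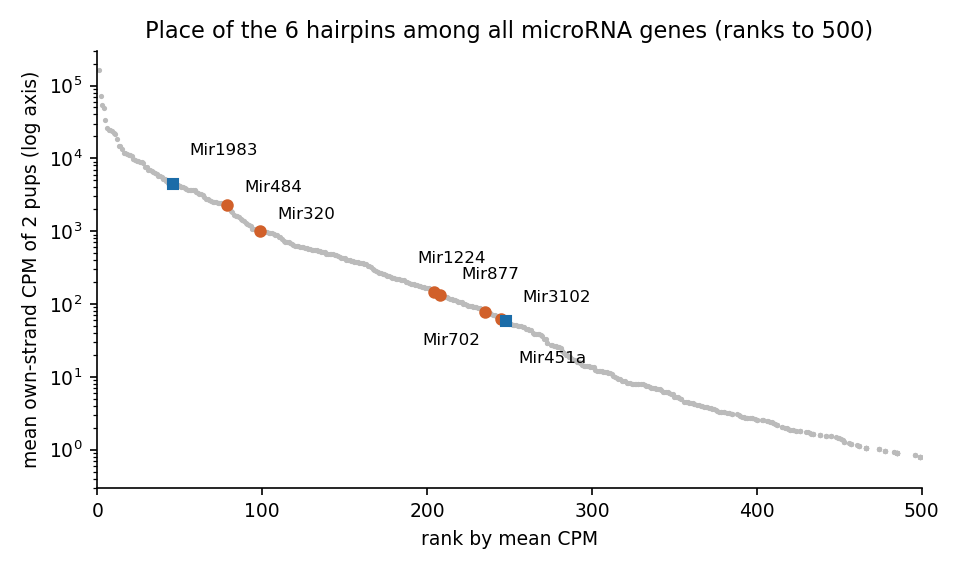
Mean own-strand CPM (log axis) against rank for all microRNA genes up to rank 500, with the 6 members in orange and Mir1983 and Mir451a, of the list of other hairpins that bypass a canonical cut, in blue. Mir484 and Mir320 fall at ranks 79 and 99, and the mirtron-type members between ranks 204 and 245.

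The genes closest in level to each member were found by the summed absolute difference of log2(CPM + 1) over the 2 libraries. For Mir484 this was Mir370, at 2521 and 2309 CPM in pups 1 and 3, and for Mir320 it was Mir383, at 1005 and 930 CPM. For Mir1224 it was Mir194-2, at 136 and 135 CPM, and for Mir877 Mir1264, at 132 and 143 CPM. For Mir702 it was Gm23935, at 86.4 and 65.1 CPM, and for Mir3102 Mir218-2, at 73.6 and 70.1 CPM. The summed differences ran from 0.10 for Mir320 to 0.41 for Mir3102, over only 2 libraries.

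Within the set of hairpins that fill an intron exactly, the members were among the highest. Mir1224 was the first of the 22, Mir877 the second and Mir3102 the fourth by mean CPM. The 3 held 61.7% of the counts of this set in pup 1 and 61.3% in pup 3. The third was Mir1981, in an intron of Marc2, at 85.6 and 86.7 CPM, followed after Mir3102 by Mir6944, in an intron of the drebrin gene Dbn1, at 63.8 and 36.3 CPM, and by Mir3547, in Baiap3, at 46.2 and 53.5 CPM. Mir1981 and Mir3547 were named after their values were seen.

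Of the 22 exact introns, 9 were detected (40.9%), or 6 of 19 without the members. A further 8 had 0 counts in both libraries and 3 had 1 count in all. Hairpins with 1 end at an intron end, as in tailed mirtrons, numbered 168, and 7 of them (4.17%) were detected, none above 9.89 CPM. Of the 656 hairpins that overlap an intron with neither end within 10 bases of its ends, 180 (27.4%) were detected. These shares describe the annotation classes and were not tested against each other.

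**Figure D4:**
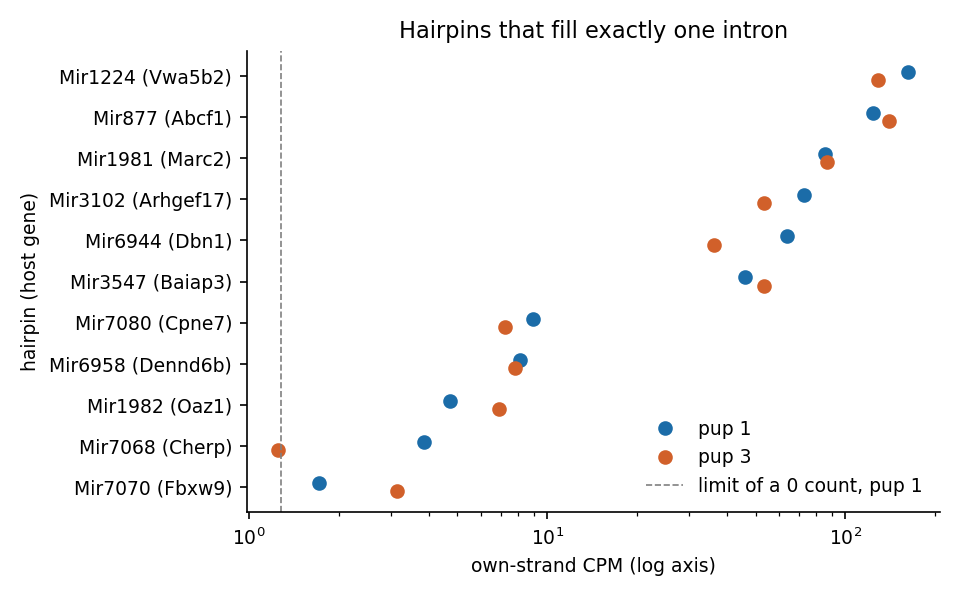
Own-strand CPM (log axis) in pup 1 (blue) and pup 3 (orange) of the 11 hairpins that fill an intron exactly and have counts in both libraries, with the host gene in parentheses. Mir1224 and Mir877 lie at 124 CPM or above in both pups, and 5 of the 11 lie below 10 CPM.

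Other hairpins known to bypass a canonical cut covered a wider range of levels. Of the list of 4, the identifiers of Mir1983 and Mir451a were matched to the tables, and those of Mir1839 and Mir664, both derived from small nucleolar RNAs, were not analysed here. Mir1983, which comes from a transfer RNA, had 9853 counts in pup 1 and 14898 in pup 3, a mean of 4439 ± 316 CPM and above every member. A count covers the whole annotated gene, so other fragments of the transfer RNA cannot be told apart from the microRNA. Mir451a of red blood cells, which Argonaute 2 cuts in place of Dicer, had 202 and 99 counts, or 86.4 and 31.0 CPM. In pup 3 it was below every member, but in pup 1 it was above Mir3102. Of 174 hairpins numbered from Mir6896 to Mir7094 in the tables, a run of late-numbered hairpins of which 14 fill an intron exactly, 8 were detected (4.60%), led by Mir6944, Mir7080 and Mir6958, the last 2 at 8.09 and 7.98 CPM. The 174 together held 0.0219% ± 0.00107 of the counts, less than the 0.0419% ± 0.00490 of the 4 mirtron-type members. For scale, Mir335, Mir26b and Mir106b, the 3 highest of a fixed list of 5 canonical intronic hairpins, had 49781 ± 9012, 14890 ± 1848 and 4629 ± 659 CPM. These are not typical levels: the median was 0 CPM over the 656 hairpins that overlap an intron with neither end within 10 bases of its ends.

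All member counts lay on the strand of the hairpin. The opposite-strand count was 0 for each of the 6 in both libraries, also for Mir484, which an exon of Marf1 overlaps on the other strand. The share of all genes with a 0 there was not computed. Gm23935, the gene nearest in level to Mir702, also had 0 opposite-strand counts in both libraries.

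Between the pups, 5 of the 6 members were lower in pup 3 and none differed by 2-fold. The ratios are of pup 3 to pup 1 after TMM scaling, among the 286 genes whose mean count reached 50, and they compare 2 libraries with no replicate check. The median log2 ratio of the members was -0.31, against 0.02 over all genes tested, of which 47.6% were below 0. Called with an adjusted p under 0.05 and at least a 2-fold ratio, the members numbered 0 of 6, where 1.75% of all tested genes were called (two-sided Fisher's exact test with Benjamini-Hochberg adjustment). At an unadjusted p under 0.05 and any fold, 4 of the 6 differed, as did 60.1% of all tested genes, so this share was near the background. With a 1.5-fold threshold Mir702 alone was called, where 6.64% of all tested genes were.

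Mir702 differed most, with a log2 ratio of -0.65 and a 95% counting interval of 0.523 to 0.774-fold (adjusted p = 5.20e-05, Fisher's exact test), the sixteenth in absolute size of the 286. Mir3102 had a log2 ratio of -0.50 (0.568 to 0.880-fold, adjusted p = 0.00857, Fisher's exact test) and Mir1224 of -0.38 (0.665 to 0.883-fold, adjusted p = 0.00259). Mir484 had a smaller ratio of -0.23 with a narrow interval of 0.821 to 0.881-fold at its greater depth (adjusted p = 4.00e-12, Fisher's exact test). These 4 passed the adjusted test at any fold, as did 57.3% of all tested genes. Those that passed with a log2 ratio below 0 were 23.4% of all tested genes.

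Mir320 and Mir877 did not pass. Mir320 had a log2 ratio of -0.10 (adjusted p = 0.234, Fisher's exact test) and a counting interval of 0.882 to 0.982-fold after scaling, while the test used unscaled totals. Mir877, the only member with more CPM in pup 3, had a log2 ratio of 0.13 (0.940 to 1.27-fold, adjusted p = 0.163, Fisher's exact test). Differences between members in these ratios were not tested.

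**Figure D5:**
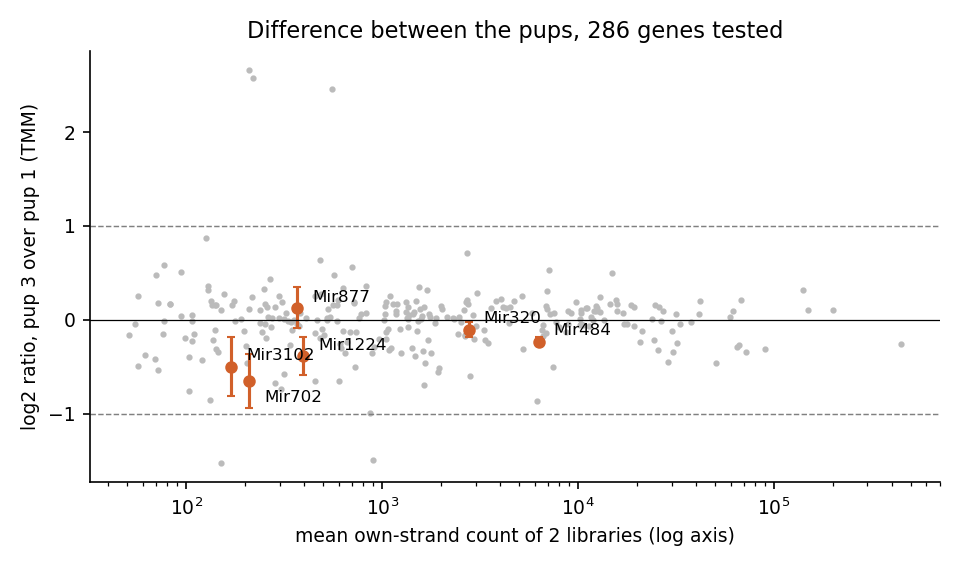
Log2 ratio of pup 3 over pup 1 after TMM scaling against the mean own-strand count (log axis) for the 286 tested genes (grey), with the members in orange with 95% counting intervals and dashed lines at 2-fold. All 6 members lie inside the dashed lines, from -0.65 for Mir702 to 0.13 for Mir877.

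Some markers of other cells also differed between these libraries, and others did not. The 2 erythroid hairpins summed to 107 and 60.1 CPM in pups 1 and 3, though Mir451a fell from 86.4 to 31.0 CPM while Mir144 had 20.1 and 29.1 CPM. The 3 epithelial hairpins Mir429, Mir200c and Mir200b summed to 91.6 and 549 CPM, and endothelial Mir126a had 36188 and 30095 CPM. The 3 neuronal hairpins summed to 33207 and 38747 CPM, with Mir137 and Mir153 higher in pup 3 and Mir132 slightly lower (2423.5 and 2332.8 CPM). The 2 microglia and leukocyte hairpins summed to 427 and 382 CPM, though Mir150 had 262 and 213 CPM while Mir223 had 164 and 169 CPM. Hepatocyte Mir122 had 58.6 and 47.9 CPM, and striated-muscle Mir206 and Mir208b summed to 30.8 and 36.6 CPM. Of these markers, Mir132, Mir144, Mir223, Mir122 and Mir206 did not pass the adjusted test at any fold, and Mir208b was not tested. The others passed, as did 57.3% of all tested genes. The part of any of these in the lower values of 5 members in pup 3 was not tested.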

How the data were processed

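Small RNA of midbrain tissue from 2 pups was sequenced, with a size range under 30 bases per the labels. The authors deposited whole-number counts per gene, not normalized, made from alignments to mm10 with GENCODE M4 per the deposited descriptions. Which aligner and counter were used is not given in the sources used here. Of 3 count columns (either, own and opposite strand), the own strand was used. The 4 rows that name no gene, 57.2% and 56.7% of reads, stayed out of totals and tests. Identifiers were matched without version to GENCODE M21 on GRCm38 (1894 of 1973 genes). Introns and transcript starts came from that annotation, leaving out small RNA genes, and hairpins were folded with ViennaRNA 2.7.2.

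CPM are own-strand counts per 1000000 on genes. Libraries were compared by Fisher's exact test (SciPy 1.17.1) with Benjamini-Hochberg adjustment over genes whose mean count reached 50, and by log2 ratios after TMM scaling with a prior count of 0.5 (edgeR 4.0.16). DESeq2 1.42.0 size factors, plain CPM, other count minimums, strands, priors, totals and fold thresholds, and each pup alone, were alternatives. A check for 1 library deposited under 2 names, against counting error only, gave a chi-square of 33249 over the tested genes (285 degrees of freedom), so the libraries were kept as 2. The code was tested on simulated data.

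The members and lists were chosen with earlier results of these data known. Named genes are all members, up to 3 of each list by mean CPM, and the detected gene nearest in level to each member; others are marked. There was no batch label.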

Additional observations from a re-analysis of the deposited data

How the results depend on the processing

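Raising the detection minimum to 50 counts left all 6 members above it, and Mir3102, the lowest, had 170 in both pups. Minimums of 1 or 5, either-strand counts and each pup alone could not have changed this result. The members had already reached 10 counts in both pups, and their opposite-strand counts were 0. A minimum of 1 count raised the number of all genes detected from 359 to 559. The summed level of the members, 3734 CPM, was 1607 per 1000000 of all reads and 4465 without the most abundant gene in the total, and 3533 to 3935 CPM in a single pup. Of the hairpins numbered Mir6896 to Mir7094, 82 in place of 8 had at least 1 count in each library. The order of Mir1224 over Mir877, a ratio of 1.10, turned with the pup left out (0.920 to 1.31). With a 1.5-fold threshold 1 member, Mir702, was called, beside 19 of all genes (6.64%) in place of 5. With a mean count of at least 10, or with no filter (697 genes in place of 286), 10 genes were called and no member. The ratio per base, chosen after seeing the data, kept the order. No paired analysis was possible because the series has 1 group. With 2 pups the spread between animals is poorly known, and depth limits hairpins below about 10 counts.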

Other observations

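The other hairpins that begin with GU and end with AG in RefSeq's table, 15 of 30, do not fill an annotated intron. Of these 12 have 1 end at an intron end. Only Mir20a, a canonical hairpin of the miR-17-92 cluster at 3196 ± 216 CPM, and Mir194-2 at 136 ± 1.36 CPM were detected, and neither lies in an annotated intron. Both were named after their values were seen. With the 15 that fill an intron exactly, 28 of the 30 lie in an annotated intron of their own strand.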
